A study of Mus musculus with 9 samples.

Results

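Transcripts of 38 genes of the amino acid response and the unfolded protein response, out of 43629 genes counted, were followed in cultured cells of the embryonic mouse heart after siRNA against a DNA methyltransferase. The genes are Atf4 and its partners and targets, the sensors of the endoplasmic reticulum (ER), and the chaperones and degradation factors of that organelle. They were chosen by function from textbook knowledge, with earlier results of these data known, and found in the count tables by Ensembl identifier through GENCODE symbols on the GRCm38 build. All 38 were detected and passed the filter on low counts. By role they comprised 6 transcription factors, 4 feedback and output genes, 8 enzymes of amino acid and folate metabolism, 3 amino acid transporters, 3 ER sensors with Xbp1, 10 ER chaperones and 3 genes of ER degradation. The 8 enzymes and 3 transporters are called the amino acid and folate genes here, and they were set against the 10 ER chaperones.

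Ventricles were taken at embryonic day 13.5 from mice of the outbred CD-1 strain. The cells were plated after fast-attaching cells had been removed and were transfected after 48 h in culture with 0.012 pmol of siRNA. The DNMT3a siRNA group received a pool of 4 siRNAs against Dnmt3a, the DNMT3b siRNA group a pool of 4 against Dnmt3b, and the negative siRNA group a commercial negative control siRNA. Dnmt3a and Dnmt3b encode the enzymes that place new methyl groups on DNA. At 72 h after transfection, cells of all 3 groups were sorted magnetically for VCAM1, a surface protein of embryonic cardiomyocytes. Poly(A) RNA was sequenced in 3 libraries per group, numbered 1 to 3. Ventricles were pooled by litter, but nothing in the labels ties a library to a litter or a culture. The p-values therefore cover the spread between these libraries alone, and that spread may be technical.

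When an amino acid runs short, when unfolded protein gathers in the ER or when other stresses act, kinases phosphorylate the initiation factor eIF2, general translation slows and ATF4 protein is made from its existing transcript. ATF4, a basic leucine zipper factor, pairs with C/EBP proteins and turns on genes that take up and make amino acids, charge tRNAs and feed mitochondrial folate metabolism. Further branches, the membrane-bound factor ATF6 and the RNase IRE1 with its substrate Xbp1 mRNA, raise ER chaperones and the machinery that removes misfolded protein. ATF4 is set largely by translation, so that its transcript level need not follow its activity.

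DNA sites of these branches were read from RefSeq promoters (GRCm38.p6, from 250 bases before to 50 bases after the annotated start) and are shown because they differ between the targets of ATF4 and the chaperones. The table held 34 of the 38 genes, and Atf6, Hyou1, Manf and Slc7a5 had no entry. Both strands were searched. The C/EBP-ATF response element, which ATF4 dimers bind, was searched as TGATGNAA. It lay in 8 of 34 promoters, against 4.51% of the 27025 promoters in the table, and in 0 of the 8 chaperone promoters. The matches follow in windows of 30 bases, each read 5′ to 3′ on the strand that carries the letters, with the match in capitals.
Asns (chr6:7693214-7693243, minus strand): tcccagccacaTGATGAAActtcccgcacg
Atf3 (chr1:191183425-191183454, plus strand): cgcggacttggTGATGCAAgtgcgagaagg
Chac1 (chr2:119351038-119351067, minus strand): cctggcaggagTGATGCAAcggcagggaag
Herpud1 (chr8:94386306-94386335, minus strand): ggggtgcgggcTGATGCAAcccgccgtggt
Nupr1 (chr7:126625562-126625591, plus strand): caagccctgtcTGATGCAAtctggcccttt
Pycr1 (chr11:120643833-120643862, minus strand): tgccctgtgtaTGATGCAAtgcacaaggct
Slc7a11 (chr3:50443642-50443671, plus strand): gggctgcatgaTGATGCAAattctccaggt
Slc7a11 (chr3:50443661-50443690, minus strand): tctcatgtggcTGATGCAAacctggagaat
Trib3 (chr2:152344028-152344057, plus strand): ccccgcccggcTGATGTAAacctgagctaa

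The ER stress response element, which ATF6 binds together with the general factor NF-Y, was searched as CCAAT, 9 bases of any kind and CCACG. It lay in the promoters of 5 of the 8 chaperones and in none of the other 26, against 0.137% of all promoters. Its capitals span the whole element.
Calr (chr8:84847069-84847098, plus strand): tatgggCCAATGAGGGTCGACCACGcgttg
Canx (chr11:50325794-50325823, minus strand): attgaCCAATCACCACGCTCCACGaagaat
Creld2 (chr15:88819515-88819544, minus strand): tgtggaCCAATTGAGGCTCGCCACGagaag
Hsp90b1 (chr10:86705527-86705556, plus strand): aactcaCCAATCGTGCCTCACCACGcactc
Hsp90b1 (chr10:86705632-86705661, minus strand): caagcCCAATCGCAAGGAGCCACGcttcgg
Hspa5 (chr2:34772020-34772049, plus strand): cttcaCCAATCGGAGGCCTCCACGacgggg

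A second form of this element, known as ER stress response element II, was present in 0.0444% of all promoters and among the 34 in that of Herpud1, shown with the match in capitals. The letters TGACGTGG, a site of ATF6 and XBP1, were in 0.714% of all promoters and in 0 of the 34. No match overlapped a match to another pattern.
Herpud1 (chr8:94386368-94386397, plus strand): cgggcgctgATTGGGCCACGttggacactg

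The 250 bases before the annotated start are given for Slc7a11, whose promoter held 2 matches to the C/EBP-ATF response element on opposite strands, and for Mthfd2, whose transcript fell with the smallest adjusted p of the 38 after DNMT3b siRNA and whose window held no match to any of the 4 patterns. Each is read on the strand of the gene, with matches on either strand in capitals.
Slc7a11 (chr3:50443614-50443863, minus strand): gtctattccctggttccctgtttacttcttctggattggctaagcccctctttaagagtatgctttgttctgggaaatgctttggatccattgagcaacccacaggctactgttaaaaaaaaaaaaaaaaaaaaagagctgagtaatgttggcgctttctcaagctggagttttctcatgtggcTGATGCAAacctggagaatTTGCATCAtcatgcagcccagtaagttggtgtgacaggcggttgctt
Mthfd2 (chr6:83317605-83317854, minus strand): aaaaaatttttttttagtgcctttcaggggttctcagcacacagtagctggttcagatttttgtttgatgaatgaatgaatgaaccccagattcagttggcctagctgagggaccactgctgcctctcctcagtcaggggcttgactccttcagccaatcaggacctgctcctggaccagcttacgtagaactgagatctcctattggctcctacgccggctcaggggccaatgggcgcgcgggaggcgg
A match describes the letters only. Binding was not measured.

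The libraries held 27852412 to 35896018 reads counted in genes, and 16561 genes were tested with edgeR's quasi-likelihood F test, an adjusted p under 0.05 being called a change. Expression is given as CPM, the counts brought to a common library total, and changes as log2 fold changes ± standard error. Values of a group follow the library numbers 1, 2 and 3. The knockdowns showed in the targeted transcripts. Dnmt3a had 40.3, 52.9 and 46.3 CPM after DNMT3a siRNA and 232, 270 and 275 CPM after negative siRNA, a log2 change of -2.48 ± 0.11 (adjusted p = 3.42e-06, edgeR). Dnmt3b had 1.17, 2.43 and 1.51 CPM after DNMT3b siRNA and 4.32, 4.26 and 4.33 CPM after negative siRNA, a change of -1.34 ± 0.23 (adjusted p = 0.00816, edgeR). Without DNMT3b library 3 its adjusted p was 0.0542. All 7 cardiomyocyte markers were detected, with summed levels of 3445 to 4002 CPM after DNMT3a siRNA, 4141 to 4834 CPM after DNMT3b siRNA and 1744 to 2026 CPM after negative siRNA, and 6 of the 7 rose in each knockdown. The 7 fibroblast markers, led by collagens, were detected too, at sums of 38285 to 42090, 36137 to 42939 and 37346 to 56953 CPM in the DNMT3a, DNMT3b and negative siRNA groups, although the labels call the samples cardiomyocytes. Of these 7, 3 were called lower after DNMT3a siRNA (Pdgfra, Dcn and Tcf21; list median -0.52) and 2 after DNMT3b siRNA (Dcn and Tcf21; median -0.43), and the collagens were not called. The 7 macrophage markers summed to 8.18 to 15.8 CPM after DNMT3a siRNA, 18.0 to 44.0 CPM after DNMT3b siRNA and 20.2 to 51.7 CPM after negative siRNA, and 2 of the 7 were called lower after DNMT3a siRNA. The 6 endothelial markers summed to 44.1 to 96.4, 111.6 to 120.7 and 57.9 to 95.7 CPM in the DNMT3a, DNMT3b and negative siRNA groups, and 1, Kdr, was called, higher after DNMT3b siRNA. The 5 epicardial markers summed to 924 to 1197, 830 to 1176 and 1327 to 1532 CPM in the same order of groups, with 2 called lower and 1 higher after DNMT3a siRNA and 1 lower after DNMT3b siRNA. The 4 smooth muscle markers summed to 7466 to 8644, 7663 to 9154 and 5105 to 7800 CPM in the same order. All 4 changes were positive in each knockdown, with medians of 0.38 after DNMT3a siRNA and 0.58 after DNMT3b siRNA. By edgeR 0 were called, while 1 and 3 were higher at an unadjusted p under 0.05, against 2111 and 1803 of the 16561 tested genes. None of these markers was at 0 in every library. In such bulk samples, fewer cells of a type and less RNA per cell cannot be told apart, and the part of cell makeup in the changes below was not tested.

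Per kilobase of transcript, 4 chaperones were the most abundant of the 38 genes in the negative siRNA libraries. Calr, a calcium-binding lectin chaperone, averaged 292 CPM per kb, Hspa5, the main ER Hsp70 protein, 186, Hsp90b1 156 and Canx, the membrane-bound lectin chaperone, 154. The chaperone with the lowest level was Dnajb9, a co-chaperone of Hspa5, at 10.5 CPM per kb. Among the amino acid and folate genes the level ran from 1.55 CPM per kb for Slc7a11 to 86.5 CPM per kb for Slc7a5. Atf4 itself stood at 108 CPM per kb.

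**Figure D1:**
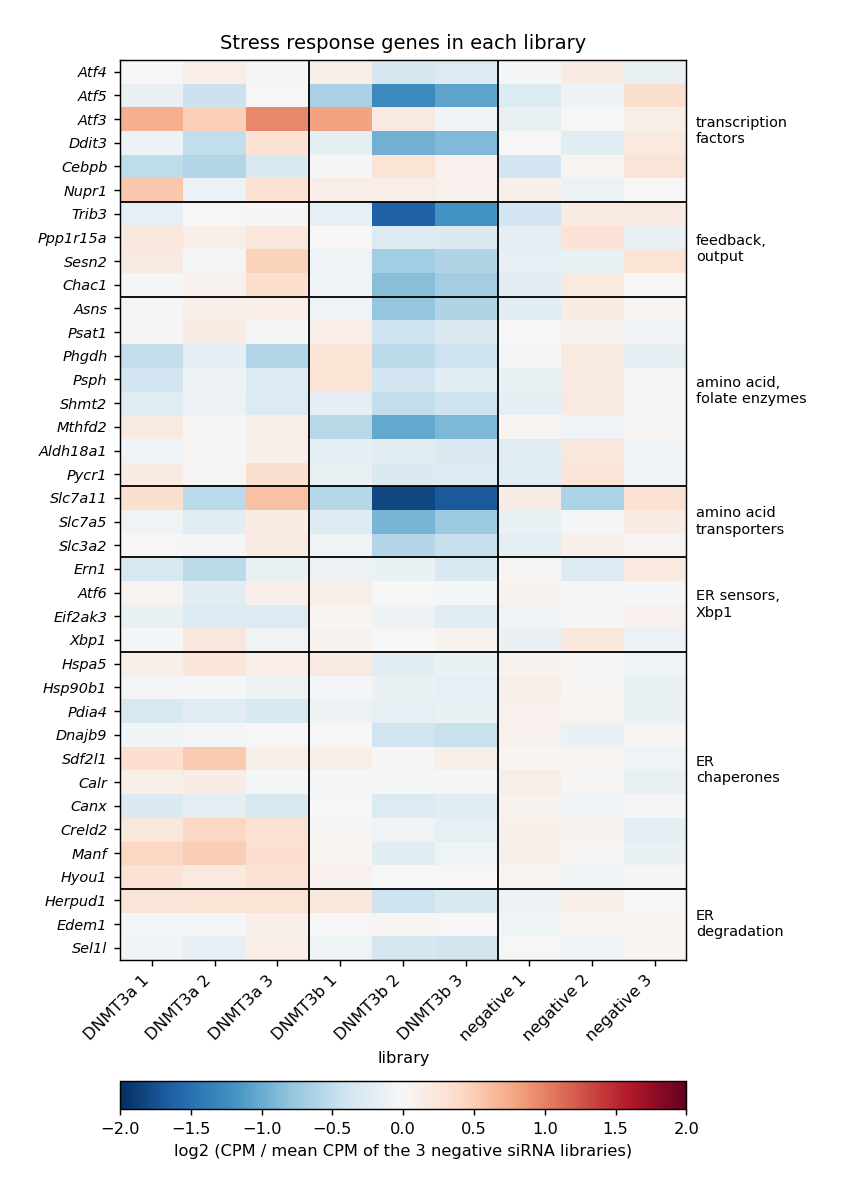
Level of each of the 38 genes (down the page, by role) in each of the 9 libraries (across), coloured by log2 of its CPM over the mean CPM of the 3 negative siRNA libraries, from blue (lower) to red (higher). Most amino acid, transporter and feedback genes are blue in DNMT3b libraries 2 and 3 and paler in DNMT3b library 1, and Manf, Hyou1 and Creld2 are red in all 3 DNMT3a libraries.

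After DNMT3b siRNA, 2 of the 38 genes were lower than after negative siRNA, Mthfd2 and Atf5, and 0 were higher. The percentage of all tested genes called in this comparison was 5.64%, with 2.12% called lower and 3.52% called higher. Counted in either direction, the share among the 38 was near the 5.64%. Both calls were in the lower direction, where the share of all tested genes was the smaller 2.12%. For the 0 called higher by edgeR, 0 had an unadjusted p under 0.05, and DESeq2 and limma also called 0. For the lower direction, 12 had an unadjusted p under 0.05. Of all 16561 tested genes, 1753 were lower and 1803 higher at that threshold. The 11 amino acid and folate genes had a median log2 change of -0.35, and all 11 values were negative. The 10 chaperones had a median of -0.07 and all tested genes a median of 0.00.

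Mthfd2 encodes the mitochondrial enzyme that oxidises methylene-tetrahydrofolate and links serine breakdown to formate. It had 54.1, 38.8 and 42.5 CPM after DNMT3b siRNA, against 81.9, 75.1 and 80.8 CPM after negative siRNA. Every DNMT3b library lay below every negative siRNA library, at means of 45.2 ± 8.0 and 79.2 ± 3.6 CPM (SD, n = 3 each). The log2 change was -0.81 ± 0.11, a level 1.75-fold lower (adjusted p = 0.00262, edgeR), and it was called under all 17 alternative settings with adjusted p between 1.60e-08 and 0.0214.

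Atf5, a leucine zipper factor whose translation, like that of Atf4, is favoured when eIF2 is phosphorylated, had 151, 98.7 and 114 CPM after DNMT3b siRNA and 196, 220 and 295 CPM after negative siRNA. The groups did not overlap. The log2 change was -0.97 ± 0.19 (adjusted p = 0.0205, edgeR). The call held under 12 of 17 alternatives. It was lost without DNMT3b library 2 (adjusted p = 0.0784), without DNMT3b library 3 (0.0989) and without negative siRNA library 3 (0.0601, all edgeR). The call was also lost with no filter on low counts and with all libraries numbered 2 left out.

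Atf4 did not pass the test. It had 276, 203 and 211 CPM after DNMT3b siRNA and 250, 285 and 230 CPM after negative siRNA, and a log2 change of -0.15 ± 0.12 (adjusted p = 0.529, edgeR). DNMT3b libraries 2 and 3 lay below all negative siRNA libraries and DNMT3b library 1 within their range, and without DNMT3b library 1 the change was -0.32 (adjusted p = 0.113, edgeR). Ddit3, the pro-apoptotic factor CHOP that is induced through Atf4, had 26.3, 15.3 and 16.2 CPM after DNMT3b siRNA, against 29.8, 25.4 and 33.8 CPM after negative siRNA. Its change was -0.62 ± 0.25 (adjusted p = 0.183, edgeR), with only DNMT3b library 1 reaching into the negative siRNA range. Trib3, a pseudokinase that ATF4 induces and that feeds back on it, had 38.1, 13.9 and 18.6 CPM after DNMT3b siRNA, against 32.7, 47.6 and 47.6 CPM after negative siRNA. Here too DNMT3b library 1 overlapped the negative siRNA libraries while the other 2 lay below all of them (-0.85 ± 0.34, adjusted p = 0.193, edgeR).

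For 6 of the 11 amino acid and folate genes, DNMT3b library 1 lay within the range of the negative siRNA libraries, a share near the 47.7% of all tested genes. Asns, which makes asparagine, had 132, 81.5 and 92.2 CPM after DNMT3b siRNA, against 120, 155 and 143 CPM after negative siRNA (-0.45 ± 0.17, adjusted p = 0.146, edgeR). Slc7a11, the cystine-glutamate exchanger, had 14.4, 6.12 and 6.70 CPM after DNMT3b siRNA, against 24.0, 13.9 and 26.7 CPM after negative siRNA (-1.24 ± 0.43, adjusted p = 0.142, edgeR). Slc7a5, the large neutral amino acid transporter, had 268, 167 and 193 CPM after DNMT3b siRNA, all below the 292, 313 and 356 CPM after negative siRNA, but did not pass the test (-0.62 ± 0.17, adjusted p = 0.0601, edgeR). Slc7a11 was called lower under 2 of 17 alternative settings and Slc7a5 under 3 of 17. Both were called in the fit with the library number as a block (adjusted p = 0.0166 and 0.0284, edgeR). Same-numbered libraries of these 2 groups correlated with r of only 0.212, 0.101 and 0.0334. Slc3a2, the heavy chain shared by both transporters, changed by -0.35 ± 0.13, and the mitochondrial serine hydroxymethyltransferase Shmt2 by -0.36 ± 0.11, with adjusted p of 0.147 and 0.0865 (edgeR). The smallest changes of the 11 were in serine synthesis, at -0.18 for Phgdh, the first enzyme of the path, -0.17 for Psat1, the aminotransferase, and -0.08 for Psph, the phosphatase. For the proline enzymes Aldh18a1 and Pycr1 they were -0.23 and -0.24.

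**Figure D2:**
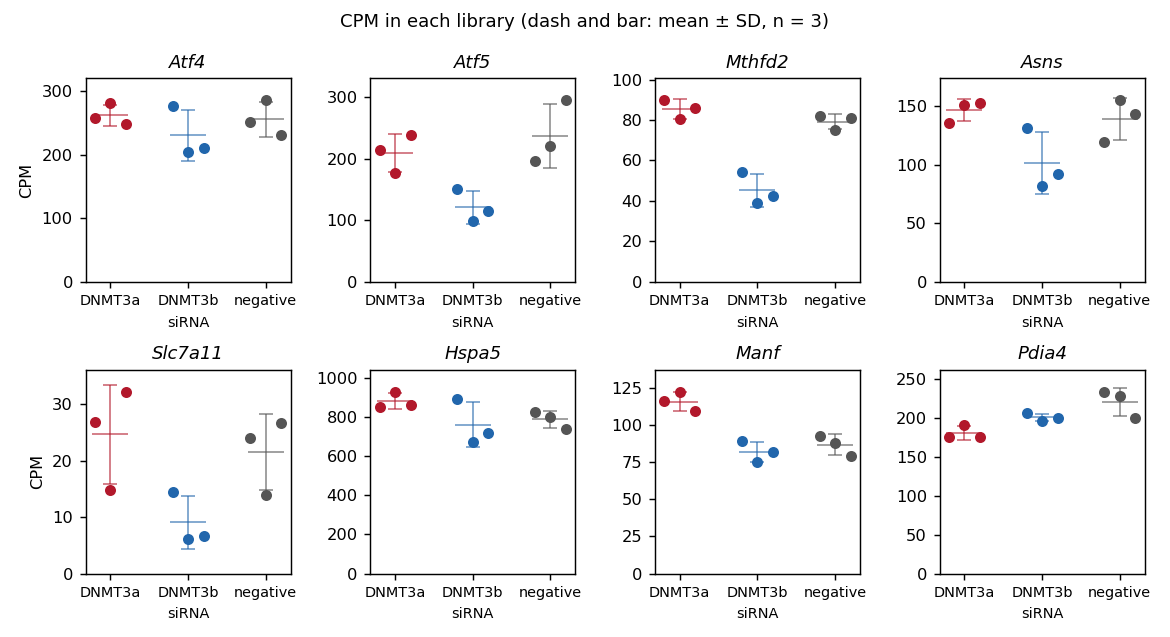
CPM of 8 of the genes in each library, by siRNA group, on axes that start at 0, with points for libraries 1 to 3 from left to right and the mean ± SD of 3 libraries. Mthfd2 lies at 38.8 to 54.1 CPM after DNMT3b siRNA and at 75.1 to 81.9 CPM after negative siRNA, whereas for Asns DNMT3b library 1 (132 CPM) stands with the negative siRNA libraries.

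The 3 libraries of the DNMT3b siRNA group were not alike in these genes. DNMT3b library 1 exceeded both of the others in 33 of the 38 genes (86.8%) and in 11 of the 11 amino acid and folate genes, against 41.1% of all tested genes. This was not particular to the amino acid and folate genes. It held for 8 of the 10 chaperones, 7 of 8 genes for mitochondrial chaperones and proteases and 6 of the 7 fibroblast markers. It held for 0 of the 7 cardiomyocyte and 0 of the 7 macrophage markers. The ratio of DNMT3b library 1 to the mean of the other 2 had a median of 1.40 over the amino acid and folate genes, 1.09 over the chaperones and 1.00 over all genes. DNMT3b libraries 2 and 3 both lay below every negative siRNA library in 23 of the 38 genes, against 22.3% of all tested genes. By role, this held for 10 of the 11 amino acid and folate genes, 4 of the 4 feedback and output genes and 3 of the 10 chaperones. Among markers it held for 4 of the 5 epicardial, 4 of the 7 fibroblast and 0 of the 7 cardiomyocyte genes.

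Averaged over the 11 amino acid and folate genes, the log2 level relative to negative siRNA was -0.12, -0.67 and -0.56 in the DNMT3b libraries, against -0.09, 0.07 and 0.03 in the negative siRNA libraries. It was -0.04, -0.07 and 0.05 in the DNMT3a libraries. For the 10 chaperones the same average was 0.03, -0.14 and -0.12 in the DNMT3b libraries and ran from -0.08 to 0.08 in the negative siRNA libraries. Other measures differed within the group too: 23491 genes were detected in DNMT3b library 1, against 25190 and 25113 in DNMT3b libraries 2 and 3. The negative siRNA libraries had 23373 to 24204, so here DNMT3b libraries 2 and 3 lay outside their range. So did all 3 DNMT3a libraries, at 23037, 24803 and 24718. Macrophage markers summed to 18.0 CPM in DNMT3b library 1, against 33.1 and 44.0 CPM in the others and 20.2 to 51.7 CPM after negative siRNA. Dnmt3b itself was lowest in DNMT3b library 1. Whether any of these played a part was not tested.

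Leaving out DNMT3b library 1 raised the number of genes called lower after DNMT3b siRNA to 13 of the 38, where 2.71% of all tested genes were called lower in the same fit. These were Atf5, Ddit3, Trib3, Chac1, Asns, Psat1, Shmt2, Mthfd2, Slc7a11, Slc7a5, Slc3a2, Dnajb9 and Herpud1. Their log2 changes in that fit ran from -0.36 for Psat1 to -1.76 for Slc7a11, with -1.40 for Trib3 (adjusted p = 0.00558, edgeR) and -0.70 for Asns (adjusted p = 0.0143, edgeR). The median of the amino acid and folate genes was then -0.48 and that of the chaperones -0.16. Leaving out DNMT3b library 2, DNMT3b library 3 or negative siRNA library 3 left 1 gene called lower, where 0.525%, 0.447% and 0.785% of all tested genes were. The count thus rests on which DNMT3b libraries enter it. DNMT3b libraries 2 and 3 differed least of all replicate pairs, with a chi-square over its degrees of freedom of 6.42, against 20.2 to 59.7 for the others. Whether these 2 libraries are independent of each other is not in the labels.

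**Figure D3:**
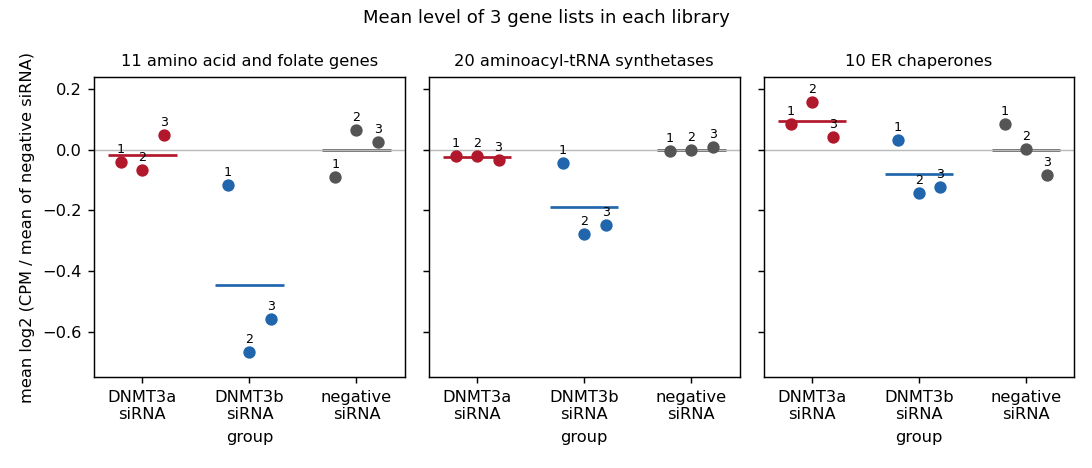
Mean over each gene list of log2 CPM relative to the mean of the negative siRNA libraries, 1 point per library with its number and a line at the group mean, for the 11 amino acid and folate genes, 20 aminoacyl-tRNA synthetases and 10 ER chaperones. DNMT3b libraries 2 and 3 lie at -0.67 and -0.56 for the amino acid and folate genes and at -0.14 and -0.12 for the chaperones, while DNMT3b library 1 lies at -0.12 and 0.03.

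For the ER genes after DNMT3b siRNA, the calls depended on DNMT3b library 1. With all libraries, edgeR called 0 of the 10 chaperones, 0 of the 4 sensor genes and 0 of the 3 degradation genes in either direction, and for so few genes this is near the 5.64% of all tested genes. At an unadjusted p under 0.05, 1 chaperone and 1 degradation gene were lower, against 1753 of the 16561 tested genes. DESeq2 and limma called 0 in all 3 roles. Without DNMT3b library 1, the co-chaperone Dnajb9 (-0.43, adjusted p = 0.0368) and the degradation gene Herpud1 (-0.37, adjusted p = 0.0421, both edgeR) were called lower, and the chaperone median was -0.16 instead of -0.07. Hspa5 had 891, 673 and 721 CPM after DNMT3b siRNA and 827, 798 and 739 CPM after negative siRNA, which overlapped (-0.05 ± 0.11, adjusted p = 0.845, edgeR). Without DNMT3b library 1 the change of Hspa5 was -0.19 (adjusted p = 0.256, edgeR). Xbp1, the factor that IRE1 activates by splicing, had 136, 129 and 136 CPM after DNMT3b siRNA and 118, 152 and 119 CPM after negative siRNA, with a change of 0.05 ± 0.11 (adjusted p = 0.849, edgeR). Counts per gene do not separate spliced from unspliced Xbp1. The sensors Ern1, which encodes IRE1, Atf6 and Eif2ak3, which encodes the eIF2 kinase PERK, changed by -0.18, 0.03 and -0.09. Sel1l, the adaptor of the ER ubiquitin ligase, was below all negative siRNA libraries in every DNMT3b library (-0.27 ± 0.10, adjusted p = 0.156, edgeR). With Atf5, Mthfd2 and Slc7a5 it made up the 4 genes whose DNMT3b libraries all lay below the negative siRNA libraries, none lying above, whereas 26.1% of all tested genes did not overlap, 12.3% lying below and 13.8% above.

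After DNMT3a siRNA the pattern was another one. Of the 38 genes, 2 were higher than after negative siRNA, Manf and Hyou1, and 1 was lower, Pdia4, and all 3 are chaperones or folding factors of the ER. Of all tested genes, 10.1% were called in this comparison, 4.87% higher and 5.22% lower, so the share called among the 38 was no larger than the background. None of the 11 amino acid and folate genes was called by edgeR, 0 had an unadjusted p under 0.05, and DESeq2 and limma called 0. Of all 16561 tested genes, 2111 were higher and 2016 lower at an unadjusted p under 0.05. The median log2 change of the amino acid and folate genes was 0.05, that of the chaperones 0.12 and that of all tested genes 0.02.

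Manf, a secreted ER protein that protects neurons and heart cells under ER stress, had 116, 122 and 109 CPM after DNMT3a siRNA, against 92.7, 88.0 and 79.0 CPM after negative siRNA. The groups did not overlap, and the log2 change was 0.42 ± 0.09 (adjusted p = 0.0150, edgeR). The call held under 14 of 17 alternatives. It was lost without DNMT3a library 1 (adjusted p = 0.0513), without negative siRNA library 3 (0.0588, both edgeR) and with all libraries numbered 2 left out. Of the exonic bases of Manf, 9.25% lie in exons of other annotated genes, on which reads could not be assigned with certainty.

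Hyou1, a large Hsp70-related chaperone, had 308, 286 and 309 CPM after DNMT3a siRNA and 259, 237 and 256 CPM after negative siRNA. Every DNMT3a library was above every negative siRNA library, by a log2 change of 0.26 ± 0.07 (adjusted p = 0.0477, edgeR). The call held under 5 of 17 alternatives, and without DNMT3a library 1 the adjusted p was 0.145. Each of the 9 libraries but DNMT3a library 2 ended the call when left out, with adjusted p from 0.0652 to 0.145. Pdia4, a protein disulfide isomerase, had 176, 191 and 176 CPM after DNMT3a siRNA, all below the 233, 228 and 200 CPM after negative siRNA. Its change was -0.29 ± 0.08 (adjusted p = 0.0459, edgeR) and was called under 7 of 17 alternatives. It was lost when any of DNMT3a library 1 or 3, DNMT3b library 2 or 3 or negative siRNA library 1 or 2 was left out, with adjusted p from 0.0675 to 0.149.

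Same-numbered DNMT3a and negative siRNA libraries deviated together, so this comparison is also given with the library number as a block. The blocked fit called 4 of the 38 genes higher and 2 lower, where it called 6.79% of all tested genes higher and 7.52% lower. Beside Manf (adjusted p = 0.00717), Hyou1 (0.0314) and Pdia4 (0.0346), it called Atf3 higher (0.0473), Creld2 higher (0.0406) and Cebpb lower (0.0301, all edgeR). Atf3, a stress-induced repressor, had 7.89, 6.73 and 9.42 CPM after DNMT3a siRNA and 4.35, 4.88 and 5.25 CPM after negative siRNA, without overlap. Its change without the block was 0.73 ± 0.22 (adjusted p = 0.0596, edgeR). Creld2, an ER-resident protein with disulfide isomerase activity, had 37.0, 41.9 and 38.8 CPM after DNMT3a siRNA and 33.7, 32.9 and 27.9 CPM after negative siRNA (0.32 ± 0.10, adjusted p = 0.0689 without the block, edgeR). Cebpb, a C/EBP factor that pairs with ATF4, had 114, 109 and 132 CPM after DNMT3a siRNA and 125, 169 and 194 CPM after negative siRNA, which overlapped (-0.46 ± 0.15, adjusted p = 0.0892 without the block, edgeR). Of its exonic bases, 20.7% are shared with the opposite-strand gene Tmem189.

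Within the chaperones, the direction was mixed after DNMT3a siRNA. All 3 DNMT3a libraries lay above all negative siRNA libraries for 5 of the 10, Hspa5, Sdf2l1, Creld2, Manf and Hyou1, and below them for 2, Pdia4 and Canx. Over all 38 genes 7 lay above and 3 below, against 26.7% of all tested genes without overlap, 14.1% above and 12.6% below. Hspa5 had 852, 928 and 863 CPM after DNMT3a siRNA, against 827, 798 and 739 CPM after negative siRNA (0.16 ± 0.11, adjusted p = 0.414, edgeR). Sdf2l1, a small cofactor of Hspa5, changed by 0.34 ± 0.12 and Canx by -0.27 ± 0.09, each with an adjusted p of 0.102 (edgeR). Hsp90b1, Calr and Dnajb9 changed by -0.06, 0.08 and -0.03.

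Atf4 had 257, 280 and 248 CPM after DNMT3a siRNA, against 250, 285 and 230 CPM after negative siRNA, and overlapped throughout (0.04 ± 0.12, adjusted p = 0.90, edgeR). Ddit3 at 27.6, 21.2 and 36.4 CPM, Asns at 136, 151 and 153 CPM and Xbp1 at 126, 151 and 124 CPM after DNMT3a siRNA also overlapped the negative siRNA libraries, with changes of -0.06, 0.07 and 0.05. The largest changes among the amino acid and folate genes were -0.41 ± 0.20 for Phgdh and -0.25 ± 0.16 for Psph, with adjusted p of 0.251 and 0.389 (edgeR). Eif2ak3 was below all negative siRNA libraries in every DNMT3a library (-0.23 ± 0.09, adjusted p = 0.137, edgeR). Ern1 changed by -0.33 ± 0.13 (adjusted p = 0.151, edgeR), with overlap.

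**Figure D4:**
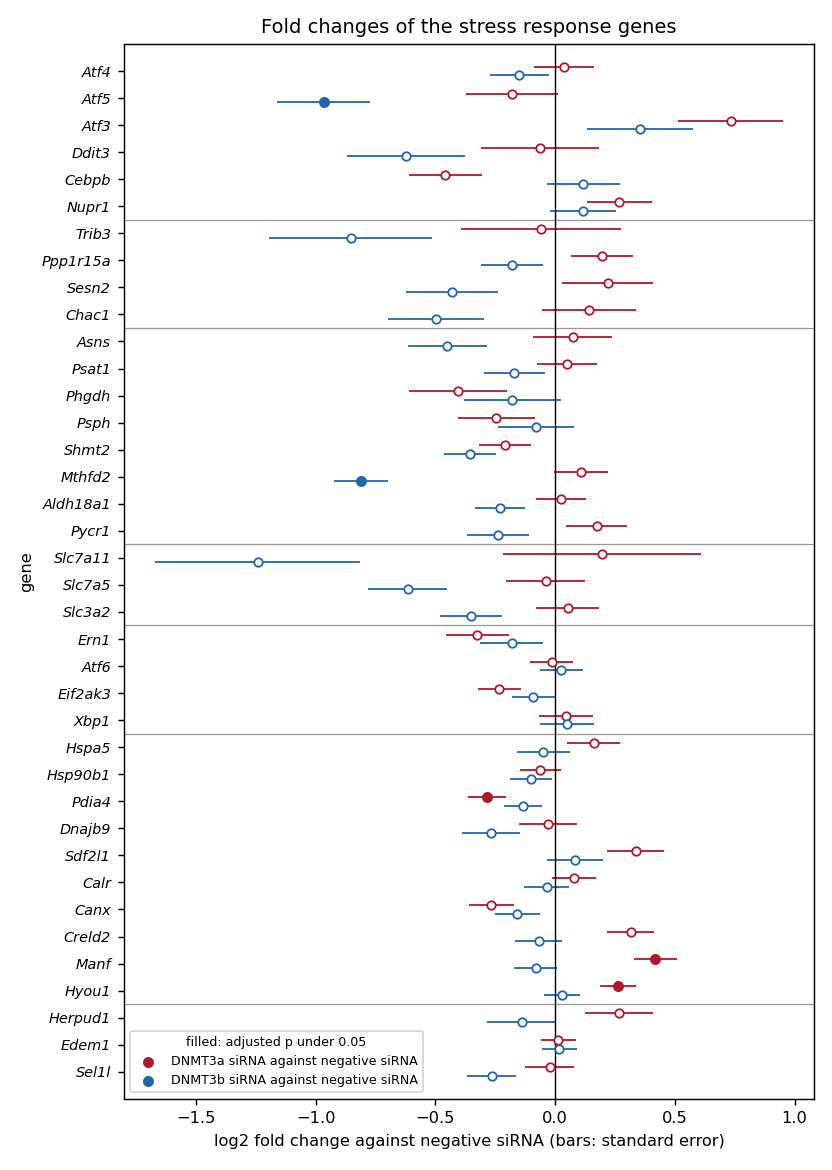
Log2 fold change of each of the 38 genes (down the page, by role) after DNMT3a siRNA (red, upper of each pair) and DNMT3b siRNA (blue, lower) against negative siRNA, with its standard error, filled where the adjusted p was under 0.05. For DNMT3b siRNA Mthfd2 (-0.81) and Atf5 (-0.97) are filled, and for DNMT3a siRNA Manf (0.42), Hyou1 (0.26) and Pdia4 (-0.29).

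The knockdowns were also compared with each other, which tests whether they differ. With DNMT3a siRNA over DNMT3b siRNA, 4 of the 38 genes were higher and 1 was lower, where 9.55% of all tested genes were called, 4.47% higher and 5.08% lower. Mthfd2 had 89.8, 80.4 and 86.2 CPM after DNMT3a siRNA, against 54.1, 38.8 and 42.5 CPM after DNMT3b siRNA, a log2 difference of 0.92 ± 0.11 or 1.89-fold (adjusted p = 0.00137, edgeR), called in all 17 alternatives. Manf differed by 0.50 ± 0.09 (adjusted p = 0.00811, edgeR), its 116, 122 and 109 CPM after DNMT3a siRNA standing clear of 88.8, 75.1 and 81.5 CPM after DNMT3b siRNA. Both held when any 1 library was left out.

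Atf5 had 214, 176 and 238 CPM after DNMT3a siRNA, against 151, 98.7 and 114 CPM after DNMT3b siRNA (0.79 ± 0.19, adjusted p = 0.0355, edgeR). Creld2 was higher by 0.38 ± 0.10 (adjusted p = 0.0348, edgeR), with 31.9, 30.1 and 28.1 CPM after DNMT3b siRNA. Cebpb was lower after DNMT3a siRNA, where 159, 197 and 172 CPM stood in the DNMT3b libraries (-0.58 ± 0.15, adjusted p = 0.0415, edgeR). None of the 3 overlapped. Each lost its call when a library of either knockdown was left out, for Atf5 DNMT3a library 1 or 3 or DNMT3b library 2 or 3 (adjusted p from 0.111 to 0.130), for Creld2 and Cebpb any of the 6 (from 0.0512 to 0.148 and from 0.0601 to 0.153).

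Of the 38 genes, 16 lay above in all DNMT3a libraries and 2, Cebpb and Pdia4, below. Of all tested genes 32.3% did not overlap, 16.2% lying above and 16.1% below. The 16 held 4 of the 4 feedback and output genes, 7 of the 11 amino acid and folate genes and 3 of the 10 chaperones. Chac1, which breaks down glutathione, differed by 0.64 ± 0.20, Sesn2, a leucine-sensing inhibitor of mTORC1, by 0.65 ± 0.19, and Ppp1r15a, the phosphatase subunit that reverses eIF2 phosphorylation, by 0.37 ± 0.13, none past the threshold (adjusted p of 0.0784, 0.0668 and 0.0993, edgeR). The median difference was 0.40 over the amino acid and folate genes, 0.22 over the chaperones and 0.01 over all tested genes. Without DNMT3b library 1, 13 genes were called higher and 0 lower, where 3.03% of all tested genes were called higher and 3.38% lower in that fit. The 13 included Trib3 (1.33, adjusted p = 0.00663), Asns (0.75, adjusted p = 0.0108) and Slc7a11 (1.94, adjusted p = 0.0327, all edgeR). The knockdowns share the negative siRNA libraries, so their changes against these are not independent of each other.

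The 8 genes with a C/EBP-ATF response element in the sequences shown above had a median log2 change of -0.34 after DNMT3b siRNA against negative siRNA, 6 of the 8 being negative. The other 26 genes in the promoter table had a median of -0.16, 22 of the 26 being negative. With DNMT3a siRNA over DNMT3b siRNA the medians were 0.47 and 0.20, with 8 of the 8 and 17 of the 26 positive. After DNMT3a siRNA against negative siRNA they were 0.18 and -0.01. The 26 include all 8 chaperones of the promoter table, so a difference by element cannot be told apart from one by role. The 5 chaperones with an ER stress response element had medians of 0.08 after DNMT3a siRNA and -0.07 after DNMT3b siRNA, against 0.04 and -0.18 for the 29 genes without it. With DNMT3a siRNA over DNMT3b siRNA these medians were 0.11 and 0.25. Mthfd2, Psat1 and Shmt2 had no match in the window, and Nupr1 and Atf3, which had one, changed by 0.12 ± 0.14 and 0.35 ± 0.22 after DNMT3b siRNA.

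Genes around these pathways were counted from lists, to be read against the shares of all tested genes called, which were 4.87% higher and 5.22% lower after DNMT3a siRNA, 3.52% and 2.12% after DNMT3b siRNA, and 4.47% and 5.08% for DNMT3a over DNMT3b siRNA. Of 20 cytosolic aminoacyl-tRNA synthetases, which join amino acids to tRNAs and are known targets of ATF4 in part, 2 were lower and 0 higher after DNMT3b siRNA by edgeR (8 lower and 0 higher at an unadjusted p under 0.05; DESeq2 5 lower and limma 2, with 0 higher in both). These were Iars, at 148, 119 and 120 CPM after DNMT3b siRNA and 177, 167 and 183 CPM after negative siRNA (-0.44 ± 0.10, adjusted p = 0.0258, edgeR), and Lars (-0.42 ± 0.10, adjusted p = 0.0337, edgeR). Both calls were lost without DNMT3b library 2, DNMT3b library 3 or negative siRNA library 1 or 3, and that of Lars also without DNMT3a library 1, with adjusted p of 0.0528 to 0.154. In DNMT3b libraries 2 and 3 the synthetases lay below every negative siRNA library for 16 of 20, against 22.3% of all tested genes. Their mean log2 level there was -0.28 and -0.25, against -0.04 in DNMT3b library 1. After DNMT3a siRNA against negative siRNA, 1 synthetase was higher, Mars (0.26 ± 0.07, adjusted p = 0.0428), and 2 were lower, Hars (-0.38 ± 0.10, 0.0307) and Qars (-0.36 ± 0.09, 0.0305, all edgeR). In 17 alternatives Mars was called in 5, Hars in 10 and Qars in 10, and leaving out DNMT3a library 1 or 3, among others, ended each call. With DNMT3a siRNA over DNMT3b siRNA, 6 synthetases were higher and 1 lower. Wars (0.56 ± 0.10, adjusted p = 0.00614) and Mars (0.39 ± 0.07, adjusted p = 0.00798, both edgeR) kept the call whichever library was left out.

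Of 17 other targets of the amino acid response, 3 were lower after DNMT3b siRNA and 0 higher by edgeR, with 0 higher at an unadjusted p under 0.05 and by DESeq2 and limma. They were the alanine aminotransferase Gpt2 (-0.61 ± 0.11, adjusted p = 0.00969), the cationic amino acid transporter Slc7a1 (-0.52 ± 0.11, 0.0164) and the neutral amino acid transporter Slc1a4 (-0.44 ± 0.09, 0.0183, all edgeR). Each was lost without DNMT3b library 2 or 3, with adjusted p from 0.0567 to 0.0971, and the transporters also without negative siRNA library 1 or 3 (0.0522 to 0.0631). After DNMT3a siRNA 1 of the 17 was lower, the glutamine transporter Slc1a5 (-0.66 ± 0.13, adjusted p = 0.0123, edgeR), and without DNMT3a library 3 its adjusted p was 0.0504. Of 18 other folate and one-carbon enzymes, Mthfd1l, the mitochondrial formyl-tetrahydrofolate synthetase, was lower after DNMT3a siRNA (-0.38 ± 0.08, adjusted p = 0.0145) and after DNMT3b siRNA (-0.34 ± 0.08, adjusted p = 0.0312, both edgeR). That after DNMT3a siRNA was lost without DNMT3a library 3 (0.0548), that after DNMT3b siRNA without DNMT3b library 2 or 3 or negative siRNA library 2 or 3 (0.0513 to 0.149). Gldc, of the glycine cleavage system, was lower after DNMT3a siRNA (-1.14 ± 0.22, adjusted p = 0.0105, edgeR).

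Of 10 genes for eIF2 kinases, phosphatase subunits and the exchange factor, Eif2b2, a subunit of that factor, had 16.1, 20.5 and 13.2 CPM after DNMT3a siRNA, against 31.2, 34.4 and 29.6 CPM after negative siRNA. The groups did not overlap (-0.93 ± 0.14, adjusted p = 0.00286, edgeR), and the call was kept in all 17 alternatives. The list had 0 calls after DNMT3b siRNA by edgeR, 1 higher and 1 lower at an unadjusted p under 0.05, and 1 lower by DESeq2 and 0 by limma. Of 23 other ER folding factors, Uggt1, which re-glucosylates misfolded glycoproteins, fell after DNMT3a siRNA (-0.53 ± 0.09, adjusted p = 0.00520, edgeR), and of 23 genes of ER degradation and translocation, 3 fell, Ssr1, Sec63 and Ube2g2, and 1 rose, Derl3. Without DNMT3a library 1, Sec63 (adjusted p = 0.0586) and Ube2g2 (0.107, both edgeR) lost the call, which left 1 lower, and Ube2g2 was called in 6 of 17 alternatives. Ssr1, a subunit of the translocon-associated protein complex, had 167, 201 and 145 CPM after DNMT3a siRNA, against 341, 340 and 284 CPM after negative siRNA (-0.91 ± 0.12, adjusted p = 0.00134, edgeR). Derl3, a factor of retrotranslocation, had 4.16, 2.30 and 8.05 CPM after DNMT3a siRNA, against 1.20, 0.976 and 0.814 CPM after negative siRNA (2.26 ± 0.44, adjusted p = 0.00999, edgeR). The calls of Uggt1, Ssr1 and Derl3 were kept in all 17 alternatives. After DNMT3b siRNA, 2 of the 23 folding factors fell, Dnajc10 (-0.47 ± 0.10, adjusted p = 0.0216) and the collagen chaperone Serpinh1 (-0.48 ± 0.12, adjusted p = 0.0357, both edgeR). Without DNMT3b library 2 the adjusted p was 0.0988 and 0.144, and other libraries ended these calls as well. Of 10 cytosolic heat shock genes 0 were called by edgeR in any of the 3 comparisons, with at most 1 in each direction at an unadjusted p under 0.05, 1 lower by DESeq2 after DNMT3a siRNA and 0 by limma. Of 8 mitochondrial chaperones and proteases, Afg3l2, an inner-membrane protease, was the one called, higher after DNMT3a siRNA (0.35 ± 0.08, adjusted p = 0.0176, edgeR). Its call was lost without DNMT3a library 1 (0.0771) and without negative siRNA library 1 (0.0734).

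**Figure D5:**
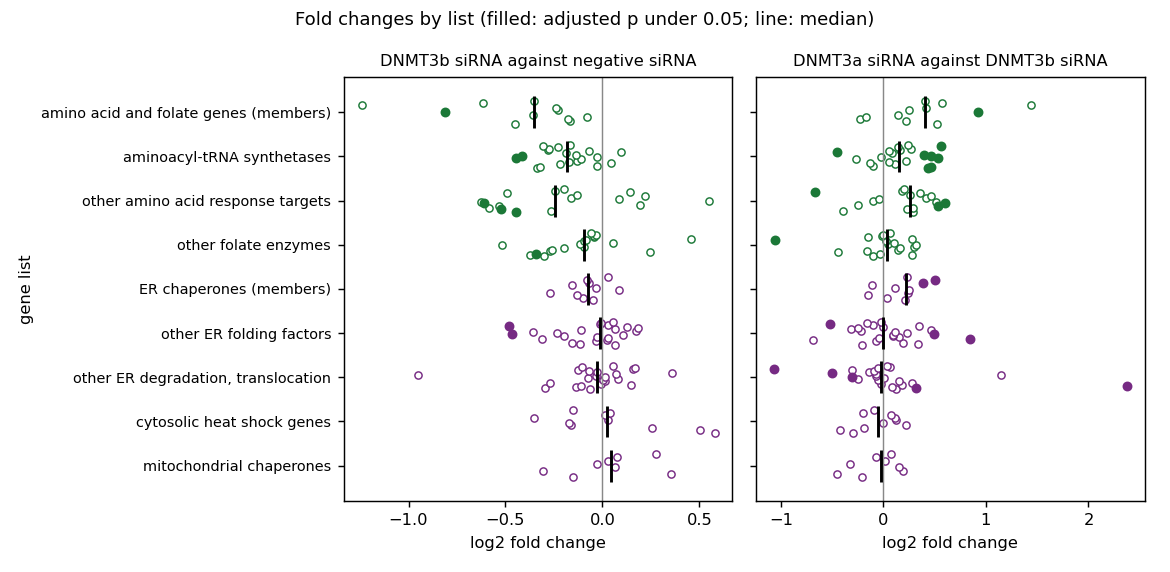
Log2 fold changes of the tested genes of 9 lists for DNMT3b siRNA against negative siRNA (left) and DNMT3a siRNA against DNMT3b siRNA (right), 1 point per gene, filled where the adjusted p was under 0.05, with the median of each list as a black line. The medians of the amino acid and folate genes lie at -0.35 and 0.40 and those of the ER chaperones at -0.07 and 0.22.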

How the data were processed

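The authors deposited whole-number read counts per gene for each library, not normalised. FastQC, TopHat2, HTSeq and the mm10/GRCm38 build are named per the submitters' processing notes; versions, annotation release and strand setting were not given in the sources used here. Genes that share exonic bases, 11 of the 38, are therefore uncertain to that extent. Summary lines, 49.2% to 56.2% of each table, entered neither library sizes nor tests. Symbols and lengths came from GENCODE mouse release 21. Genes were filtered with filterByExpr (minimum count 10, total 15), scaled by TMM and tested in 1 quasi-likelihood fit of all 9 libraries with 6 residual degrees of freedom and a biological coefficient of variation of 0.154 (edgeR 4.0.16, R 4.3.3, robust, two-sided, Benjamini-Hochberg over 16561 genes). The procedure was also run on simulated counts, drawn independently for each library. Same-numbered libraries here correlated in part, so that run does not give the error rate in these data. Alternatives were other scalings, no filter, DESeq2 1.42.0, limma-voom (limma 3.58.1), only the 2 groups compared, the library number as a block, each library left out and all libraries numbered 2 left out.

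What a library number stands for is not in the labels. Deviations from group means correlated across genes between same-numbered DNMT3a and negative siRNA libraries with r = 0.434, 0.513 and 0.459. A blocked fit is therefore given for that comparison beside the unblocked fit, from which the changes, standard errors, medians and figures come. All replicate pairs differed by more than sampling noise (chi-square over its degrees of freedom at least 6.42). The lowest value was that of DNMT3b libraries 2 and 3, and the other pairs ran from 20.2 to 59.7. The members and lists were chosen with earlier results of these data known. Values by library are given for called members and Atf4, Ddit3, Asns, Hspa5 and Xbp1, other named list genes being among the up to 4 with the smallest adjusted p, and Trib3, Slc7a11, Slc7a5, Atf3, Hars, Lars and Qars were chosen after their values were seen. Lists have counts and medians and no test.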

Additional observations from a re-analysis of the deposited data

How the results depend on the processing

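Over 17 alternatives, no call of the 38 genes changed direction. The count called higher after DNMT3a siRNA, 2, was 1 with RLE size factors, 1 with only the 2 groups compared, 4 with the replicate block, 0 without all libraries numbered 2 and 0 to 3 with 1 library left out. The count lower, 1, was 0 with library size alone, no filter, only the 2 groups or no libraries numbered 2, 3 with DESeq2, 2 with the block and 0 to 1 with 1 library left out. After DNMT3b siRNA the count lower, 2, was 4 with DESeq2 and with the block, 1 without libraries numbered 2 and 1 to 13 with 1 library left out, and the chaperone median ran from -0.16 to -0.039. For DNMT3a over DNMT3b siRNA, the count higher, 4, was 7 with library size alone, 12 with DESeq2, 8 with the block and 2 to 13 with 1 library left out. The count lower, 1, was 0 without libraries numbered 2 and 0 to 1 with 1 library left out, and the chaperone median was 0.10 without libraries numbered 2. The chaperone level of DNMT3a library 2, 0.16, was 0.26 with library size alone. The cause of these shifts was not tested. Counts of all tested genes shifted with the setting too. The main fit called 807 higher and 864 lower after DNMT3a siRNA, 583 and 351 after DNMT3b siRNA, and 741 and 841 between the knockdowns. DESeq2 called 1004 and 1299, 879 and 836, and 1029 and 1245 in the same order. With the block the counts after DNMT3a siRNA were 1125 and 1245. Over all genes, the counts ranged from 388 to 1125 higher and 453 to 1299 lower after DNMT3a siRNA, from 224 to 1017 and 74 to 836 after DNMT3b siRNA, and from 190 to 1132 and 325 to 1381 between the knockdowns. Same-numbered DNMT3b and negative siRNA libraries correlated with r = 0.212, 0.101 and 0.0334 and DNMT3a and DNMT3b libraries with r = 0.161, 0.0776 and 0.0414. Such low positive values cannot show whether a number marks a shared litter or culture in these comparisons. At 3 libraries a group, changes that miss the threshold are not shown to be absent.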
